A study of Caenorhabditis elegans with 24 samples.

Results

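Translated mRNA, the polysome-bound mRNA of whole *Caenorhabditis elegans*, was compared between worms under dietary restriction (DR) and worms fed ad libitum (AL). The comparison used 8 of the 24 libraries of the series, 4 of translated mRNA under DR and 4 under AL, chosen by diet, strain and RNA fraction from the labels. Both groups were the wild-type strain N2 with no mutant allele or transgene, kept at 20 °C. They were moved at day 1 of adulthood to plates of *Escherichia coli* OP50. The labels give lysis at day 4 of adulthood, whereas the study states 4 days on these plates. The labels give the food as 10 to the power of 9 colony-forming units for DR and of 11 for AL, whereas the methods of the study state one density for both diets, so the label values are used here. All plates carried FUdR, a drug that blocks egg production and the growth of progeny, and the antibiotic carbenicillin. Sequencing libraries held polyA RNA, did not keep strand and came from biological quadruplicates. Total mRNA of the same 2 diets, again 4 libraries each, is given only where it shows how a change in translated mRNA differed.

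Ribosomes load one after another onto an mRNA that is being translated, and the resulting polysomes sediment further in a sucrose gradient than free mRNA or single ribosomes. The level of an mRNA in the polysome fraction depends both on how much of it the animal holds and on the share of it that is being translated. Restricting food without malnutrition is known to extend life span in many animals, to lower overall protein synthesis and, in worms, to slow reproduction and turn metabolism toward stored fat.

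The translated libraries held 7960544 to 10012008 reads on genes under DR and 8696904 to 10546897 under AL. Ribosomal RNA genes, almost entirely the single locus F31C3.9, took 11.5 to 20.9% of these reads in the DR libraries and 1.88 to 7.77% in the AL libraries (two-sided exact permutation p = 0.0286, which is as low as 4 against 4 libraries can go). Genes with at least 1 read numbered 16555 to 16809 under DR and 17150 to 17502 under AL (exact permutation p = 0.0286). Spearman's rho across genes was 0.992 to 0.993 between DR libraries, 0.995 to 0.997 between AL libraries and 0.875 to 0.883 between a DR and an AL library. These are whole worms, so for every gene below a smaller number of cells of one type and less RNA per cell cannot be told apart.

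Of 8222 coding genes with a mean of at least 8 normalized CPM (read counts scaled to library size) over the N2 libraries, 597 (7.26%) were higher and 648 (7.88%) lower under DR than under AL in translated mRNA. Each count of a gene list below is to be read against these shares of all genes. The limits of a call were an adjusted p under 0.05 (limma, Benjamini-Hochberg over all 8222 genes) and a 2-fold change, on the scale of log2(CPM + 0.5). The adjusted p of the called genes was 5.78e-09 at most, and in all 1245 of them the 4 DR and 4 AL values did not overlap. Absence of overlap was common among all genes tested, at 72.6%, and 82.5% had an adjusted p under 0.05 at any size of change, so the 2-fold limit decided most calls, with 5534 genes past the p threshold but under 2-fold. The part of the higher ribosomal RNA share of the DR libraries in these changes was not tested beyond scaling, and with values scaled to coding reads 694 genes were higher and 535 lower. The standard error of a log2 change had a median of 0.061. It rests on 1 estimate of spread per gene from the fit of all 16 N2 libraries, total mRNA included. It is therefore not the spread of the 8 translated libraries alone. Increases were at least 4-fold in 89 genes and at least 8-fold in 19, and decreases were at least 4-fold in 141 and at least 8-fold in 29. The genes that were higher had a median of 40.98 CPM under DR and 14.4 CPM under AL, while those that were lower had a median of 16.3 CPM under DR and 49.7 CPM under AL. The log2 change of all genes had a median of -0.09.

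The largest increase was that of *acs-2*, an acyl-CoA synthetase that prepares fatty acids for oxidation in mitochondria and is known to be induced by fasting. It had 847, 836, 845 and 783 CPM in the DR libraries, against 14.01, 13.98, 13.9 and 12.7 CPM in the AL libraries. The lowest DR value was far above the highest AL value, and the log2 change was 5.87 ± 0.045 (SE of the shared fit, 4 libraries per group; limma adjusted p = 9.17e-49). *ilys-3*, an invertebrate-type lysozyme that digests bacterial cell walls, had 56.4, 56.5, 55.7 and 53.0 CPM under DR, against 1.97, 1.89, 2.39 and 1.80 CPM under AL (log2 change 4.48 ± 0.10; limma adjusted p = 2.79e-32). *spp-23*, a saposin-like protein of a family that includes antimicrobial peptides, had 113, 110.1, 105 and 102 CPM under DR, against 6.74, 5.32, 7.50 and 7.73 CPM under AL (log2 change 3.89 ± 0.10). *scl-2*, which encodes a secreted SCP-like protein, had 565, 574, 565 and 549.7 CPM under DR, against 43.9, 44.1, 45.7 and 41.9 CPM under AL (log2 change 3.67 ± 0.041). None of these groups of values overlapped. The other members of the 10 largest increases were *T16G1.7*, the C-type lectins *clec-60* and *clec-5*, the cuticle collagen *col-94*, *F42A10.7* and *F23A7.8*, with log2 changes of 4.69, 3.89, 3.55, 3.65, 3.54 and 3.47. *F23A7.8* encodes a very short protein (coding length 201 bases), and its increase was larger on polysomes, with 78.7, 66.001, 71.5 and 69.5 CPM under DR, against 5.19, 4.66, 6.70 and 7.86 CPM under AL in translated mRNA, and means of 109.9 CPM under DR and 72.3 CPM under AL in total mRNA.

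*F09C8.1* decreased the most, with 4.96, 2.61, 5.80 and 4.85 CPM under DR, against 222, 222, 197 and 202 CPM under AL (log2 change -5.43 ± 0.12; limma adjusted p = 4.68e-33). *dct-17*, which is named for control by the transcription factor DAF-16, had 11.1, 9.53, 7.40 and 7.68 CPM under DR, against 231, 228, 242 and 222 CPM under AL (log2 change -4.63 ± 0.081). *C14C6.5* had 19.97, 21.8, 22.5 and 21.2 CPM under DR, against 476, 478, 465 and 478 CPM under AL (log2 change -4.44 ± 0.05). In each of these the highest DR value lay far below the lowest AL value. The list of 10 went on with *F55G11.4*, the C-type lectin *clec-196*, *F25A2.1*, *Y45G5AM.5*, *sdz-5*, *F15E6.4* and the secreted leucine-rich repeat protein gene *sym-1*, at log2 changes of -4.63, -4.31, -4.28, -4.11, -3.92, -3.40 and -3.33. All 10 decreases were also called in total mRNA, where their log2 changes ran from -4.74 to -2.66. Of the 10 largest increases, all but *F23A7.8* were called higher in total mRNA too.

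**Figure D1:**
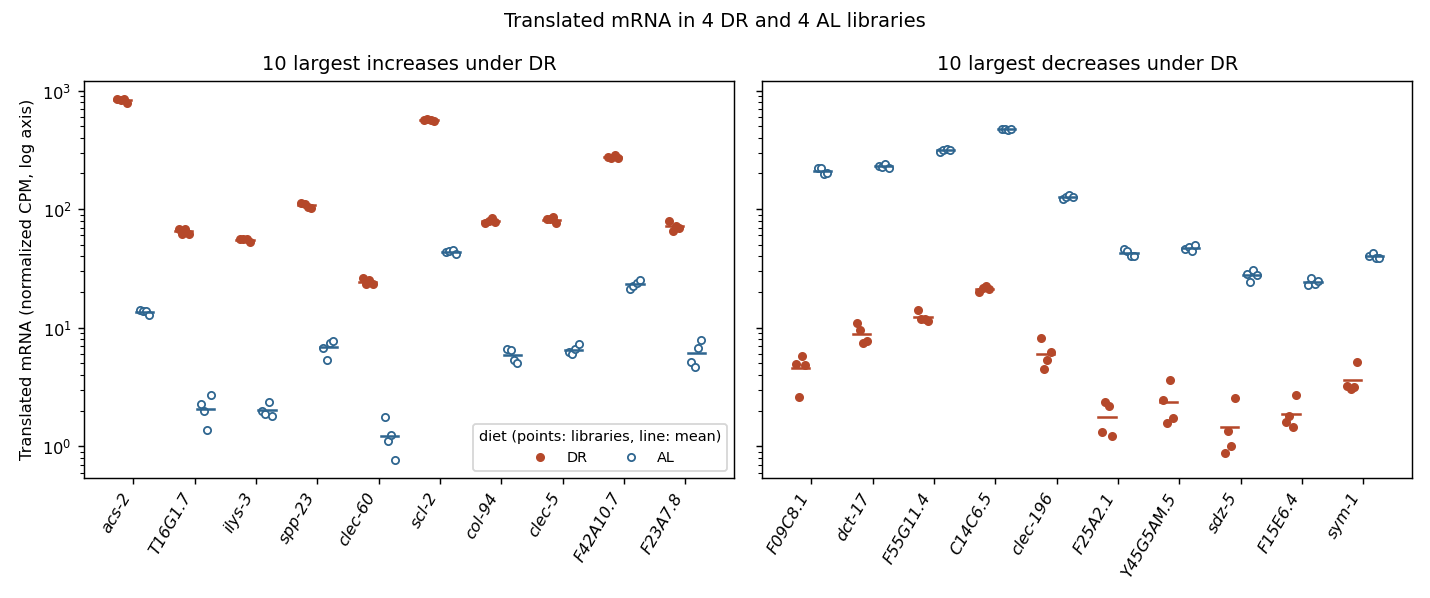
Translated mRNA of the 10 genes with the largest increase (left panel) and the 10 with the largest decrease (right panel) under DR, in normalized CPM on a log axis. Filled points are the 4 DR libraries, open points the 4 AL libraries and lines their means. The points of a diet lie close together and the 2 diets do not overlap for any of the 20 genes, with *acs-2* at a mean of 828 CPM under DR, against 13.6 CPM under AL.

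Among 28 kept genes of the fasting response and of fat breakdown, 8 rose and 2 fell, and the median log2 change was 0.22, beside -0.09 for all genes. The lysosomal lipases that release fatty acids from stored fat moved in both directions. *lipl-1* had 55.7, 62.1, 56.7 and 55.9 CPM under DR, against 6.43, 5.99, 7.16 and 6.83 CPM under AL, and *lipl-3* rose by a log2 change of 2.74. In contrast, *lipl-5*, a lipase gene of the same family, fell to 113, 109, 122 and 102 CPM under DR, against 411, 403, 429.9 and 398 CPM under AL (log2 change -1.88 ± 0.043; limma adjusted p = 1.15e-32). Carnitine palmitoyltransferases carry fatty acids into mitochondria, and of the 4 kept *cpt-5* rose by 2.43 and *cpt-6* had a log2 change of -1.14 while *cpt-1* and *cpt-2* changed less than 2-fold. *icl-1*, whose protein holds both enzymes of the glyoxylate cycle and lets worms make sugar from fat, rose to 699, 689, 714 and 685 CPM under DR, against 143, 134, 137 and 129 CPM under AL (log2 change 2.35 ± 0.034). The DR and AL values of the lipases and of *icl-1* did not overlap. *hacd-1* and *daf-22*, enzymes of fatty acid oxidation, rose by 1.68 and 1.32 on the log2 scale. *nhr-49*, the nuclear receptor that is known to drive *acs-2* during fasting, had 114, 111, 112 and 116 CPM under DR, against 124, 125, 119.5 and 112 CPM under AL, and these values overlapped (log2 change -0.08; limma adjusted p = 0.0412). The related receptor *nhr-80* rose by a log2 change of 1.09 in translated mRNA and changed by 0.10 in total mRNA (limma adjusted p of the difference = 8.06e-10).

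Of 19 kept genes of fat synthesis, desaturation and elongation, 2 rose and none fell. Both were desaturases. *fat-3*, the delta-6 desaturase that starts the synthesis of long polyunsaturated fatty acids, had 213 ± 8.93 CPM under DR and 79.5 ± 4.25 CPM under AL (SD, n = 4 each). *fat-5*, a delta-9 desaturase acting on palmitic acid, had 493 ± 22.1 CPM under DR and 236 ± 6.95 CPM under AL. *fat-6*, the delta-9 desaturase that acts on stearic acid, was slightly lower, at 442 ± 6.39 CPM under DR and 503 ± 5.91 CPM under AL (log2 change -0.19). The list's median of -0.08 became 0.01 when values were scaled to coding reads, so it carries no direction.

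Muscle genes rose broadly. Of 37 sarcomere genes 23 rose and none fell, with a median log2 change of 1.34, beside -0.09 for all genes. *unc-54*, the major myosin heavy chain of body wall muscle, had 1309.5, 1337, 1382 and 1304 CPM under DR, against 317, 269, 297 and 259 CPM under AL (log2 change 2.23 ± 0.037; limma adjusted p = 3.1e-37). *mlc-3*, the essential myosin light chain, had 667, 716, 722 and 686 CPM under DR, against 125, 125, 127 and 123.2 CPM under AL (log2 change 2.47 ± 0.032). The pharyngeal myosin heavy chain *myo-2* rose together with the body wall genes, with 48.0, 48.9, 50.9 and 48.6 CPM under DR, against 11.6, 11.204, 11.8 and 10.04 CPM under AL (log2 change 2.09 ± 0.067). No DR value of these myosin genes came near the AL values. The genes called higher were 10 of 12 thick filament genes, 8 of 10 troponins and tropomyosin, and 5 of 15 actins and attachment genes. *lev-11*, which encodes tropomyosin, rose by 1.87 and the titin-like giants *unc-22*, *ttn-1* and *unc-89* rose by 1.71, 1.69 and 1.86 on the log2 scale. *act-4*, an actin of muscle, rose by 1.52, whereas *act-1* had a log2 change of only 0.09 with overlapping values. The myosin chaperone *unc-45* had a log2 change of -0.21. In total mRNA 14 of the 37 rose and the median was 0.88. Near-identical copies such as *act-1*, *act-2* and *act-3* or *mlc-1* and *mlc-2* may share reads, so their split is uncertain.

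Neuropeptide precursors also rose broadly. FMRFamide-like peptides are short neural messengers cut from a precursor protein, and of the 20 *flp* genes kept of 31, 15 rose, none fell and all 20 had a positive log2 change, with a median of 1.34. *flp-14* had 143, 143, 136 and 125 CPM under DR, against 34.9, 35.8, 36.2 and 34.6 CPM under AL (log2 change 1.93 ± 0.056; limma adjusted p = 5.76e-29). *flp-1* had 169, 195, 169.8 and 163 CPM under DR, against 47.4, 48.8, 42.7 and 50.6 CPM under AL (log2 change 1.87 ± 0.062). In both genes all DR libraries were above all AL libraries. *flp-15* had the largest log2 change of the family, 2.17, with 20.9 ± 1.47 CPM under DR and 4.28 ± 0.644 CPM under AL (SD, n = 4 each). In total mRNA only *flp-9* and *flp-15* passed the 2-fold limit, and the median was 0.63. Of 27 kept *nlp* genes, which encode the other neuropeptide-like proteins, 17 rose and 5 fell. *nlp-51*, *nlp-50* and *nlp-18* had the largest increases, with log2 changes of 2.16, 2.06 and 1.85. All 5 decreases were in *nlp-28*, *nlp-29*, *nlp-31*, *nlp-33* and *nlp-39*. Several of these, *nlp-29* and *nlp-31* among them, are known as antimicrobial peptides of the epidermis rather than as neural messengers, and *nlp-28* had 3.94, 6.24, 4.64 and 4.18 CPM under DR, against 27.9, 29.8, 29.8 and 29.5 CPM under AL (log2 change -2.52 ± 0.11). *nlp-33* lay at the limit with -1.01, and lost its call without AL replicate 2, DR replicate 2 or DR replicate 4, at -0.991, -0.937 and -0.999, with a pseudocount of 1, at -0.966, and when scaled to coding reads, at -0.923. Of the enzymes that process neuropeptides, *egl-3*, a proprotein convertase, and *egl-21*, a carboxypeptidase, had log2 changes of 0.69 and 0.79 and were not called.

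Insulin-like peptides, which bind the receptor DAF-2, were mostly too low to be kept, 5 of 39. *ins-7*, an agonist known from the intestine and neurons, had 77.7, 70.7, 70.7 and 75.2 CPM under DR, against 15.9, 15.3, 14.3 and 15.5 CPM under AL (log2 change 2.23 ± 0.072; limma adjusted p = 2.09e-27). The same gene had a mean of 18.9 CPM under DR and 13.1 CPM under AL in total mRNA, and the difference of the diet effect between the pools was 1.72 ± 0.10 on the log2 scale (limma adjusted p = 5.96e-18). *ins-34* fell to 4.52, 6.46, 5.66 and 6.33 CPM under DR, against 24.3, 25.8, 24.8 and 22.9 CPM under AL (log2 change -2.01).

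All 4 kept genes of metal binding and iron storage rose. *ftn-1*, a ferritin of the intestine that stores iron, had 413, 428, 401 and 403 CPM under DR, against 36.7, 40.3, 36.8 and 39.5 CPM under AL (log2 change 3.41 ± 0.05; limma adjusted p = 4.72e-39). The second ferritin, *ftn-2*, had 1557, 1596, 1601 and 1489 CPM under DR, against 516, 535, 517 and 531 CPM under AL (log2 change 1.57 ± 0.027). *mtl-2*, a metallothionein that binds zinc and cadmium, had 152, 145, 143 and 148 CPM under DR, against 36.1, 40.6, 35.8 and 35.9 CPM under AL (log2 change 1.98 ± 0.058). The diets did not overlap for any of these genes in translated mRNA. In total mRNA *mtl-2* had lower values under DR, 20.6, 21.8, 22.3 and 21.1 CPM, against 28.7, 32.5, 33.1 and 34.4 CPM under AL. The difference of its diet effect between translated and total mRNA was 2.55 ± 0.082 on the log2 scale (limma adjusted p = 1.55e-26), and *mtl-1* and *ftn-2* also passed the 2-fold limit for this difference.

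Genes of contact with bacteria changed in both directions, beside 7.26% higher and 7.88% lower of all genes tested. Of 27 kept antimicrobial peptide genes, 11 rose and 2 fell. *spp-14*, a saposin-like peptide, had 2405, 2365, 2370.5 and 2352 CPM under DR, against 294, 303, 297 and 315 CPM under AL (log2 change 2.97 ± 0.029; limma adjusted p = 4e-45). *spp-4* had 51.02, 43.3, 46.1 and 42.6 CPM under DR, against 10.2, 13.2, 10.9 and 11.5 CPM under AL in translated mRNA. Its values in total mRNA were in the opposite order, 5.62, 4.33, 5.61 and 6.28 CPM under DR, against 11.16, 8.97, 10.4 and 8.98 CPM under AL, and the difference between the pools was 2.76 ± 0.15 (limma adjusted p = 2.87e-19). *spp-18* was one of the 2 that fell, with a log2 change of -1.92. Of 9 kept lysozymes, which break bacterial cell walls, *ilys-3* and *lys-4* rose and *lys-2* and *lys-7* fell. *lys-4* had 243, 241, 234.8 and 229.6 CPM under DR, against 28.01, 31.8, 27.04 and 29.1 CPM under AL, while *lys-7* had 1128, 1185, 1189 and 1101 CPM under DR, against 3364, 3398, 3309 and 3306 CPM under AL (log2 change -1.54 ± 0.026). The decrease of *lys-7* was larger in total mRNA, at a log2 change of -3.53, and the difference between the pools was 1.99 ± 0.037 (limma adjusted p = 4.12e-34). Of 42 kept C-type lectins, a family of sugar-binding secreted proteins, 9 rose and 15 fell in translated mRNA, and 4 rose and 20 fell in total mRNA. *clec-86* had 50.6, 49.9, 46.7 and 40.96 CPM under DR, against 5.71, 9.87, 8.86 and 10.4 CPM under AL, while its total mRNA had a log2 change of -0.59. *clec-266* fell to 66.2, 57.5, 64.3 and 61.0 CPM under DR, against 548, 549, 533 and 537 CPM under AL (log2 change -3.11). Of 20 lysosomal proteases 4 rose and 2 fell, among them the cathepsin B-like *cpr-1* at 2.73 and *cpr-5* at 2.96, and the aspartyl protease *asp-4* at -1.195. Members of these families can resemble each other closely, and *clec-86* and *clec-266* share over 10% of their exon bases with another gene, which unstranded reads cannot separate.

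**Figure D2:**
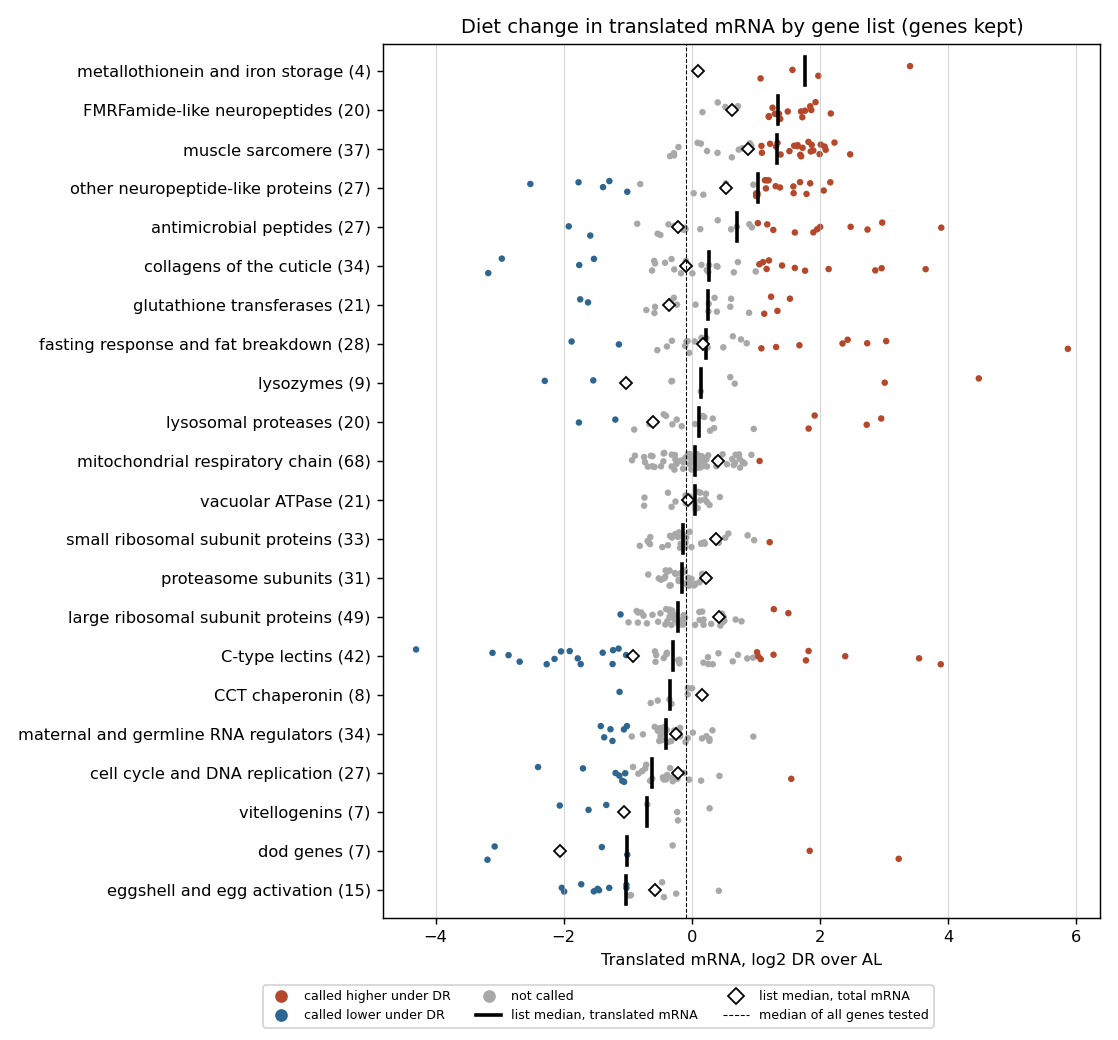
Log2 change of translated mRNA under DR over AL for each kept gene of 22 lists (horizontal axis), with the number of kept genes in parentheses. Red points rose, blue points fell and grey points were not called, black bars are list medians in translated mRNA, open diamonds list medians in total mRNA, and the dashed line is the median of all genes at -0.09. The medians of muscle, *flp* and metal-binding genes lie right of the line at 1.34, 1.34 and 1.77, and the median of the eggshell genes lies left of it at -1.02.

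Genes of the oocyte and the egg were lower. Of 15 kept eggshell and egg activation genes 9 fell and none rose, with a median log2 change of -1.02 in translated mRNA and -0.58 in total mRNA, where 2 fell. *chs-1*, the chitin synthase that builds the eggshell, had 54.2, 51.9, 51.8 and 54.6 CPM under DR, against 228, 216, 219 and 210.4 CPM under AL (log2 change -2.03 ± 0.036; limma adjusted p = 1.8e-36). *egg-2*, a receptor of the oocyte surface needed for fertilization, had 48.4, 59.99, 51.5 and 55.2 CPM under DR, against 221, 217, 212 and 211 CPM under AL (log2 change -1.99 ± 0.043). *cpg-1*, a chondroitin proteoglycan of the eggshell, had 387, 401, 404 and 383 CPM under DR, against 1362, 1307, 1325 and 1229 CPM under AL (log2 change -1.73 ± 0.029). For each of these eggshell genes every DR value lay below every AL value. An exception was *perm-4*, which is needed for the permeability barrier of the egg and had 8182, 8283, 8608 and 7884 CPM under DR, against 6349, 6198, 6237 and 5822 CPM under AL (log2 change 0.42, under 2-fold). *rme-2*, the receptor through which oocytes take up yolk, fell to 189, 206, 190.1 and 194 CPM under DR, against 591, 612, 604 and 579 CPM under AL (log2 change -1.61 ± 0.03).

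Of the 6 kept genes of the yolk proteins themselves, made in the intestine, 2 fell and none rose, and 5 had a negative log2 change. In total mRNA 4 of the 6 fell, with a median log2 change of -1.30, against -0.46 in translated mRNA. *vit-4* fell to 367, 343, 361 and 346 CPM under DR, against 1517, 1514, 1469 and 1428 CPM under AL (log2 change -2.06 ± 0.031) and *vit-3* fell by 1.34. *vit-2* had 14738, 15168, 15474 and 14996 CPM under DR, against 18569, 17749, 18000.3 and 16468 CPM under AL (log2 change -0.23), and *vit-5* had 9030.1, 9532, 9296 and 9369.8 CPM under DR, against 7993, 7791, 7775 and 7185 CPM under AL (log2 change 0.28). Neither reached 2-fold. *vit-3*, *vit-4* and *vit-5* are close copies of each other, so reads may have been divided between them.

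Of 34 maternal and germline RNA regulators 6 fell and none rose, and the median was -0.41. *oma-2* and *oma-1*, zinc finger proteins of oocyte maturation, had log2 changes of -1.42 and -1.27. *car-1* and *cgh-1*, which bind stored maternal mRNA, fell to 643 ± 20.8 and 687 ± 16.3 CPM under DR, against 1661 ± 52.2 and 1624 ± 95.2 CPM under AL (SD, n = 4 each). The 9 P granule genes on this list were all under 2-fold. Of 27 cell cycle and DNA replication genes 7 fell and 1 rose. *cyd-1*, the worm cyclin D, had 5.98, 5.90, 7.26 and 6.60 CPM under DR, against 35.8, 35.5, 37.04 and 35.8 CPM under AL (log2 change -2.40 ± 0.092). *orc-1*, a subunit of the origin recognition complex, fell by 1.7003 on the log2 scale. The one that rose was *cki-1*, an inhibitor of cyclin-dependent kinases, with 41.7, 53.3, 50.5 and 51.5 CPM under DR, against 17.5, 17.3, 15.1 and 15.7 CPM under AL (log2 change 1.55 ± 0.084; limma adjusted p = 7.51e-20). *cdk-2* fell in translated mRNA only, with 6.71, 6.12, 9.43 and 9.16 CPM under DR, against 18.9, 18.97, 17.95 and 17.4 CPM under AL, whereas in total mRNA it had 34.4, 30.4, 32.8 and 32.1 CPM under DR, against 22.2, 23.7, 23.2 and 24.7 CPM under AL. The difference between the pools was -1.65 ± 0.14 on the log2 scale (limma adjusted p = 1.18e-13).

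Housekeeping genes of protein synthesis stayed mostly under 2-fold, and the medians of the ribosomal lists had opposite signs in the 2 pools. Of 49 large and 33 small ribosomal subunit protein genes, 3 rose and 1 fell. The median log2 change was -0.21 for the large subunit in translated mRNA, against 0.43 in total mRNA, and -0.14 for the small subunit, against 0.37 in total mRNA. In 41 of 49 large and 28 of 33 small subunit genes the diet effect was lower in translated than in total mRNA at an adjusted p (limma) under 0.05 at any size, beside 32.2% of all genes, and in 6 and 3 it was higher, beside 35.3% of all genes. *rpl-36.A* fell to 1285, 1324, 1335 and 1353 CPM under DR, against 2748, 2835, 2911 and 2973 CPM under AL, while in total mRNA it had 2751, 2692, 2781 and 2809.5 CPM under DR, against 1880.1, 1914, 1942 and 1935 CPM under AL. The exceptions that rose were *rpl-11.2*, *rpl-25.1* and *rps-13*, with log2 changes of 1.51, 1.28 and 1.22. The same order was seen for 25 of 31 proteasome subunits, 49 of 68 genes of the respiratory chain and 7 of 8 subunits of the CCT chaperonin, which folds actin and tubulin. In translated mRNA none of the proteasome subunits was called by limma, edgeR or DESeq2, with 23 at an unadjusted p (limma) under 0.05, *asg-2* of ATP synthase was the one respiratory chain gene called, with a log2 change of 1.06, and *cct-8* was the one chaperonin subunit called, with -1.13.

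Of 44 translation factors 2 rose and 1 fell. The change differed between the 2 genes of the factor eIF5A, which helps ribosomes past stalled sequences. *iff-2* had 549, 544, 571 and 517 CPM under DR, against 134, 135, 138 and 131 CPM under AL (log2 change 2.01 ± 0.033), and *iff-1*, the copy known from the germline, had 866, 892, 884 and 876 CPM under DR, against 2155, 2159.6, 2196 and 2234 CPM under AL (log2 change -1.31 ± 0.024; limma adjusted p = 3.34e-36). In total mRNA the log2 change of *iff-1* was 0.19, and 20.47% of its exon bases overlap another gene. *eef-1A.1*, the elongation factor that brings tRNAs to the ribosome, had 8064 ± 202 CPM under DR and 11389 ± 423 CPM under AL, and the helicase *eif-4A3* rose by 1.23. None of 31 aminoacyl-tRNA synthetases was called by limma, edgeR or DESeq2, with a median of -0.18, although 28 had an unadjusted p (limma) under 0.05.

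Cuticle collagens split, with 11 higher and 4 lower of 34 kept of 176. *col-19*, a collagen of the adult cuticle, had 462, 481, 498 and 416 CPM under DR, against 102, 107, 112 and 99.0 CPM under AL (log2 change 2.14 ± 0.044). *dpy-14*, a collagen of earlier stages, fell to 5.83, 4.99, 5.22 and 4.45 CPM under DR, against 50.2, 56.9, 47.0 and 47.4 CPM under AL (log2 change -3.18 ± 0.11). *col-183* had a log2 change of -2.97 in translated and -5.43 in total mRNA, from values of 0.897 ± 0.48 CPM under DR and 9.93 ± 0.461 CPM under AL in translated mRNA. Of its exon bases 11.6% overlap another gene. In the basement membrane *let-2*, a chain of collagen IV, rose by 1.25 and *lam-2*, the gamma chain of laminin, fell by 1.94 on the log2 scale. The second collagen IV chain, *emb-9*, had a log2 change of 0.97.

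Detoxification genes moved one by one. Of 20 kept cytochrome P450 genes 5 rose and 4 fell, beside 7.26% higher and 7.88% lower of all genes tested. *cyp-34A9* had 18.5, 20.3, 18.6 and 19.1 CPM under DR, against 1.45, 1.44, 1.36 and 1.55 CPM under AL (log2 change 3.33 ± 0.13), and *cyp-14A5* had 63.1, 64.5, 65.9 and 67.4 CPM under DR, against 315, 337, 312 and 315 CPM under AL (log2 change -2.28 ± 0.038). The sign of the list's median depended on the scaling, so it carries no direction. Of 21 glutathione transferases 4 rose and 2 fell. *gst-24* had 2213, 2272, 2176 and 2044 CPM under DR, against 735, 755, 756 and 761 CPM under AL (log2 change 1.53 ± 0.03), while its total mRNA had a log2 change of 0.35. Of 29 UDP-glucuronosyltransferases 4 fell and none rose, and none of 12 antioxidant enzymes was called by limma or edgeR, 1 by DESeq2, and 9 at an unadjusted p under 0.05 without the 2-fold limit. Among 7 kept *dod* genes, named as targets downstream of DAF-16, *dod-3* and *dod-6* rose by 3.23 and 1.84, while *dod-24* and *dod-19* had log2 changes of -3.19 and -3.08, and 4 in all fell.

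Over all genes tested 7.26% were higher and 7.88% lower. The counts from amino acid breakdown to SR splicing factors that follow are too small to stand apart from these shares. In amino acid breakdown 2 of 29 genes rose, the D-amino acid oxidase *daao-1* at 3.46 and the D-aspartate oxidase *ddo-2* at 2.34. In autophagy 1 of 23 rose and 2 fell. The one that rose was *hlh-30*, the worm TFEB, a transcription factor of lysosome and autophagy genes, with 221, 220.5, 233 and 209 CPM under DR, against 101, 93.2, 101 and 92.6 CPM under AL (log2 change 1.18 ± 0.04; limma adjusted p = 1.2e-26). *epg-2*, an adaptor of selective autophagy in embryos, fell by 2.01 on the log2 scale. *hlh-30* and *nhr-80* were the 2 called of 16 transcription factors linked to life span. Of 17 genes of glycolysis the aldolase *aldo-1* rose, by 1.27, and of 13 genes of the methionine cycle *cth-1* rose, by 1.05. The 16 lipid-binding proteins held 2 that rose and 1, *lbp-9*, that fell, and of 8 histone genes the linker histone *his-24* fell by 1.90. *rsp-3* rose among 7 SR splicing factors. No gene was called among 21 subunits of vacuolar ATPase, 30 genes of small RNA pathways, 8 of nonsense-mediated decay or 23 on the chaperone list. Their medians were 0.05, -0.19, -0.15 and -0.34. The chaperone list held 11 cytosolic, 9 ER and 2 mitochondrial chaperones and 1 transcription factor. At an unadjusted p (limma) under 0.05 and any size of change, 16, 27, 6 and 21 genes of these 4 lists would pass, and neither edgeR nor DESeq2 called one. Of 9 genes that were hits of the study's RNAi screen for life span 6 fell and none rose, but the screen drew its candidates from genes lower under DR in these same libraries, so their direction is not independent evidence.

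Markers of tissues were set beside these changes. Some markers are also on the lists above, among them *unc-54* and *mlc-3* of muscle, *myo-2* of the pharynx, and *rme-2* and *oma-1* of the germline. The sums are therefore in part the same values again and not separate evidence. The summed CPM of 10 muscle markers was 4985 to 5242 under DR and 1390.4 to 1480.2 under AL, with 9 markers above the AL range in every DR library and *hlh-1*, a transcription factor of muscle fate, listed at 0 in all 8 libraries. For 10 neuron markers the sums were 812 to 856 CPM under DR and 519.8 to 526 under AL, and for 10 pharynx markers 219 to 239 under DR and 105 to 112 under AL. The summed CPM of 10 germline markers went the other way, at 2086 to 2224 under DR and 3370.4 to 3668 under AL. Of these markers 3 were above and 5 below the AL range in every DR library. Over all 8222 genes tested 2535 lay above and 3436 below in this way, so the germline counts were close to the share of all genes. Intestine markers summed to 18525 to 19403 CPM under DR and 19903 to 22248 under AL, with 7 above and 3 below. The sums of 10 hypodermis markers were 501 to 578 CPM under DR and 232 to 258 under AL, but *col-19* made up most of the sum under DR, and 1 marker was above and 4 were below the AL range in every DR library. Sperm markers and the 31 major sperm protein genes were close to absent, at sums of 11.23 to 15.5 and 10.6 to 13.7 CPM under DR and 15.6 to 17.4 and 45.6 to 52.2 under AL. The part of tissue proportions in the changes of muscle, neuropeptide and egg genes was not tested. No marker other than *hlh-1* was at 0 in all 8 libraries among the germline, hypodermis, intestine, muscle, neuron, pharynx and sperm lists, and 3 of the major sperm protein genes were.

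The diet effect on translated mRNA was then set against that on total mRNA. In total mRNA 303 genes (3.69%) were higher and 648 (7.88%) lower. Of the 597 genes higher in translated mRNA 221 were also called higher in total mRNA, 37.02% of the first list and 72.9% of the second, and of the 648 lower genes 375 were also called lower, 57.9% of both lists. No gene was called in opposite directions. Across the 8222 genes Pearson's r of the 2 log2 changes was 0.766, a description over genes that share worms and are not independent replicates. The 597 genes had a median log2 change of 1.35 in translated mRNA and 0.83 in total mRNA, and the 648 genes one of -1.37 and -1.196. The 376 genes called higher only in translated mRNA had a median log2 change of 1.23 in translated and 0.64 in total mRNA, and the 273 called lower only there had medians of -1.153 and -0.57, sizes that the choice of these genes in part fixes. Over all genes the difference was called positive in 316 (3.84%) and negative in 147 (1.79%).

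**Figure D3:**
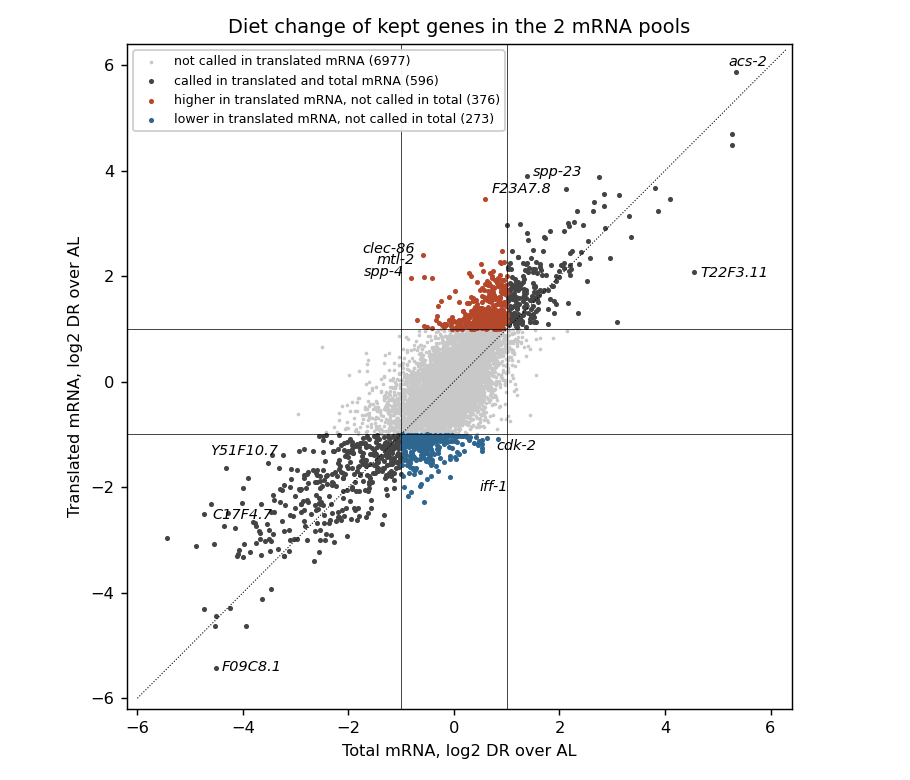
Log2 change under DR over AL in translated mRNA (vertical axis) against that in total mRNA (horizontal axis) for 8222 genes, with thin lines at 2-fold and a dotted line of equal change. Grey points were not called in translated mRNA, dark points were called in both pools, and red and blue points were called in translated mRNA only, 376 higher and 273 lower. *clec-86*, *mtl-2* and *spp-4* lie left of 0 in total mRNA and above 1 in translated mRNA, and no gene was called in opposite directions in the 2 pools.

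The largest positive differences among called genes were those of *clec-86*, *F23A7.8*, *spp-4*, *Y51F10.7* and *mtl-2*, at 2.98 ± 0.18, 2.88 ± 0.13, 2.76 ± 0.15, 2.68 ± 0.055 and 2.55 ± 0.082 on the log2 scale. *Y51F10.7* differs from the other 4 in that it fell in both pools and fell less on polysomes. It had 230.3, 215, 210.3 and 203 CPM under DR, against 626, 684, 685 and 668 CPM under AL in translated mRNA, and 14.96, 14.1, 14.3 and 13.7 CPM under DR, against 293, 289, 287 and 306 CPM under AL in total mRNA. *C17F4.7* behaved likewise, at log2 changes of -2.51 in translated and -4.73 in total mRNA. The largest negative differences were those of *T22F3.11*, *F46C5.1*, *denn-4*, *C04H5.1* and *B0035.18*, at -2.47 ± 0.26, -1.95 ± 0.20, -1.92 ± 0.10, -1.84 ± 0.13 and -1.78 ± 0.11. *T22F3.11* rose in both pools and less on polysomes, with 6.41, 4.54, 5.22 and 3.23 CPM under DR, against 0.519, 0.998, 0.682 and 0.773 CPM under AL in translated mRNA, and a mean of 26.8 CPM under DR and 0.686 CPM under AL in total mRNA. Its AL values stand for few reads, so the size of its change is imprecise. *denn-4* had a log2 change of -1.08 in translated mRNA, which lost its call at -0.995 when values were scaled to coding reads, and of 0.84 in total mRNA. *F46C5.1* rose in both pools and lost its 2-fold call in translated mRNA without AL replicate 2, at a log2 change of 0.96, against 1.14 with all libraries.

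**Figure D4:**
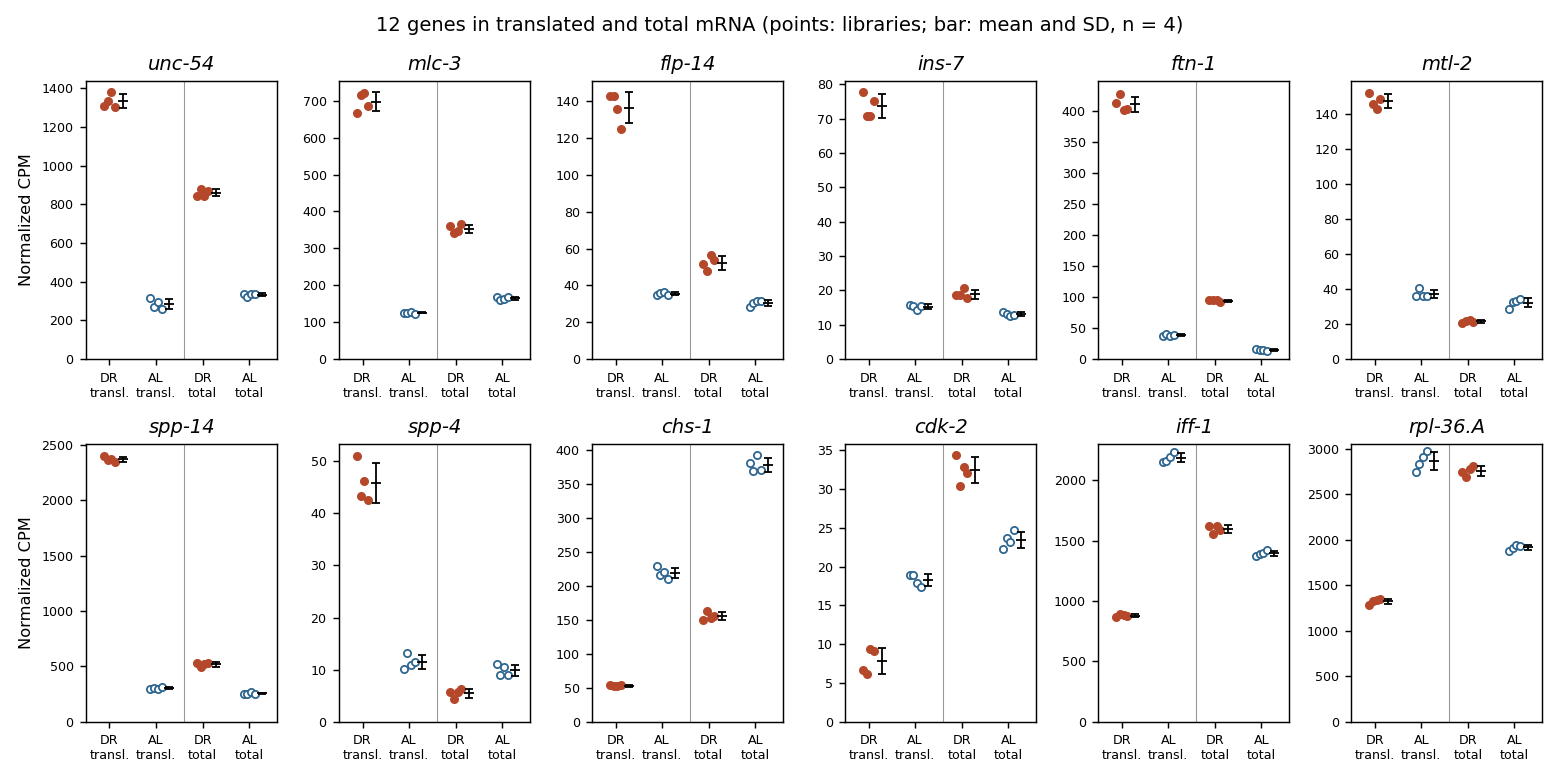
Normalized CPM of 12 genes in translated mRNA (left of each panel) and total mRNA (right), with DR as filled and AL as open points for each library and the mean and SD beside them (n = 4). *unc-54*, *mlc-3*, *flp-14*, *ins-7*, *ftn-1* and *spp-14* are higher under DR in both pools, *mtl-2* and *spp-4* are higher under DR in translated and lower in total mRNA, *chs-1* is lower under DR in both, and *cdk-2*, *iff-1* and *rpl-36.A* are lower under DR in translated and higher in total mRNA.

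Coding length differed between the genes that rose and the rest, which is given as a description over genes, with no test. The median coding length was 780 bases (quartiles 441 to 1296) for the 597 higher genes, 1158 bases (751.5 to 1775) for the 648 lower genes and 1191 bases (721 to 1842) for all genes. Of 1053 genes of up to 500 bases 16.52% were higher in translated mRNA, and this share was 8.51% over 500 and up to 1000, 5.45% over 1000 and up to 2000, 2.63% over 2000 and up to 4000 and 6.18% above 4000 bases. The share of lower genes varied less, between 6.65 and 8.42%. In total mRNA 5.603% of the genes of up to 500 bases were higher and 10.4% lower, and the genes higher in total mRNA had a median coding length of 1071 bases. Of the 174 higher genes of up to 500 bases, 40 are on the *flp*, *nlp*, insulin-like or antimicrobial peptide lists, and without these lists the share at up to 500 bases was 13.6%. Above 4000 bases 23 genes were higher, of which 7, among them *unc-54*, *unc-89* and *ttn-1*, are sarcomere genes. The X chromosome held 18.8% of the higher and 17.6% of the lower genes, beside 1036 of all 8222 genes tested.

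**Figure D5:**
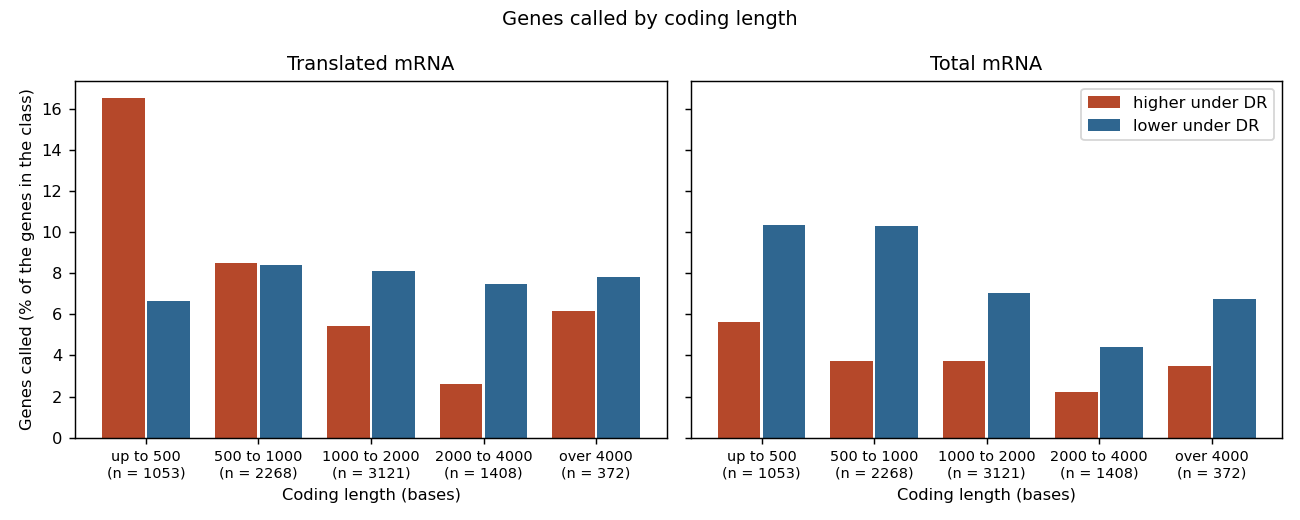
Share of genes called higher (red) and lower (blue) under DR in 5 classes of coding length, for translated mRNA (left panel) and total mRNA (right panel), as a percentage of the genes in the class, whose number stands under it. In translated mRNA 16.52% of the genes of up to 500 bases were higher, against 2.63% of those over 2000 and up to 4000 bases.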

How the data were processed

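RNA was sequenced from whole worms in 24 libraries, of which the 8 translated mRNA libraries of N2 worms carry the comparison. According to the study's methods, the authors used TopHat with Ensembl release 66 transcripts for aligning paired reads to genome WS220, counted them with HTSeq and normalized with edgeR. The submitters' processing notes give the versions HTSeq 0.6.1, edgeR 3.0 and bcl2fastq 2.20. The deposited values are a signal, CPM on normalized library sizes, from which whole reads were recovered for 100% of values (tolerance 0.05 reads). Values were therefore not plain CPM, and library sums are not equal. Coding genes averaging 8 CPM or more across the 16 libraries of N2 were kept, and log2(CPM + 0.5) was fitted with limma 3.58.1 (R 4.3.3) with a term for each of the 4 groups. The difference of the diet effect between translated and total mRNA was a contrast of the same fit. Adjusted p-values are Benjamini-Hochberg. edgeR 4.0.16 (quasi-likelihood) and DESeq2 1.42.0 on recovered reads, other scalings, pseudocounts, filters and left-out libraries were the alternatives. On simulated data, 100% of 200 genes changed by a log2 of 2 among 8222 were called, with 0 false calls. These changes were well above the 2-fold limit, with the same spread for every gene and no difference in ribosomal RNA share. The simulation therefore says nothing of changes near the limit.

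Genes were matched to Ensembl release 115 (44933 of 45461), whose build differs from that of the authors. It gave gene names, gene type, chromosome, coding length and overlap. Which genes counted as coding or ribosomal RNA, and which matched a list, therefore rests on this release. Close copies of a gene may share reads, and unstranded reads cannot be assigned between overlapping genes. The text names the 10 largest changes in each direction, the members of each list with the largest changes or defining roles, and the 5 largest differences between pools in each direction, with some genes added after their values were seen. The members and gene lists were chosen with earlier results of these data known. Replicates are biological according to the study, and p-values measure the spread between them. Same-numbered DR and AL libraries of translated mRNA did not deviate together, so no pairing was used. Pairing between translated and total libraries was not checked. One result is not reported here.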

Additional observations from a re-analysis of the deposited data

Results flagged for a closer look

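In groups of 4 libraries, 1 value stood apart from the other 3 by Dixon's test at its 95% limit in 13 of 280 groups, about the 1 in 20 that chance gives. They were, among DR libraries, *F55G11.4* with 13.995 CPM in replicate 1, *spp-18* with 47.5 CPM in replicate 1, *lipl-1* with 62.1 CPM in replicate 2, *vit-3* with 473.8 CPM in replicate 2, *mlc-1* with 136.9 CPM in replicate 4 and *sym-1* with 5.12 CPM in replicate 4. Among AL libraries they were *act-3* with 291 CPM in replicate 1, *mtl-2* with 40.6, *cyp-14A5* with 337 and *nhr-80* with 22.7 CPM in replicate 2, and *acs-2* with 12.7 CPM in replicate 4. AL replicate 4 also stood apart in its ribosomal RNA share, 7.77%, and its share of coding reads, 91.8%.

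The log2 change under DR was more positive in translated than in total mRNA in 316 genes and more negative in 147, tested as a contrast of 1 limma fit. Of the 316, 101 were called higher in translated mRNA and 44 lower, the latter having fallen less on polysomes. Of the 147, 59 were called lower and 3 higher in translated mRNA. Among genes called in translated mRNA the largest of these differences were 2.98 for *clec-86*, 2.88 for *F23A7.8*, 2.76 for *spp-4*, 2.68 for *Y51F10.7* and 2.55 for *mtl-2* on the log2 scale in one direction, and -2.47 for *T22F3.11*, -1.95 for *F46C5.1*, -1.92 for *denn-4*, -1.84 for *C04H5.1* and -1.78 for *B0035.18* in the other.

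Translated mRNA of well-fed worms of the strain *daf-2;rsks-1* was outside the comparison. In it, 6 of the 10 genes with the largest increase under DR had all 4 values above all 4 N2 AL values, at means of 65.1 CPM for *acs-2*, 14.5 for *ilys-3*, 13.8 for *clec-60*, 101 for *scl-2*, 10.68 for *col-94* and 25.4 for *clec-5*. *F42A10.7* and *T16G1.7* had lower means there, 2.11 and 0.663 CPM, against 23.2 and 2.09 CPM in N2 under AL. The share of all genes tested that lie above in this way is not given here, so the count is a description and shows no likeness of the strain to DR.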

How the results depend on the processing

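The counts of 597 higher and 648 lower genes depended on the filter on low values. With a mean of at least 1 CPM they were 1228 and 1183, and with no filter 1365 and 1344, as more genes were tested. Leaving out 1 library in turn gave 586 to 616 higher and 631 to 661 lower genes. All other counts stayed within 1.5 times, among them 631 and 662 with edgeR, 684 and 601 with DESeq2 and 694 and 535 with values scaled to coding reads. The difference in ribosomal RNA share between DR and AL ran from 10.5 to 13.7 percentage points with 1 library left out, and that in coding reads from -13.7 to -10.6. A fit with the replicate number as a block gave 597 and 648. The deviations of same-numbered DR and AL libraries of translated mRNA correlated at -0.015, 0.019, 0.032 and -0.014, so no pairing of the diets by number was seen there. A pairing of translated with total libraries was not checked, and the difference between pools was fitted as if all libraries were independent. The median log2 change of all genes was -0.09, and -0.01 when scaled to coding reads, under which *nhr-49* turned to 0.0054. Of 2853 gene values over 136 genes, 7 lost a call, all in *nlp-33*, *F46C5.1* and *denn-4*, and 3 gained one, all in *emb-9*. At the 7960544 to 10546897 reads on genes per library, genes under 8 CPM were not tested.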

Other observations

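Some gene families without a list of their own moved together, although members such as *nhr-49* and *nhr-80* are on the lists above. The families are named here because of their values, so their counts are a description, beside 7.26% higher and 7.88% lower of all genes tested. Of 7 kept *fbxb* genes, which encode F-box proteins that pick targets for destruction by the proteasome, 6 fell, with a median log2 change of -2.89, and of 12 *fbxc* genes 6 fell. Of 31 *fbxa* genes 2 rose and 1 fell, no more than the shares of all genes. The *skr* genes encode Skp1-related proteins, the adaptors of F-box proteins, and 10 of 18 fell, with a median of -1.42. Of 7 *sdz* genes 6 fell and 1 rose, with a median of -2.83, and 4 of 6 *irg* genes, named for their response to infection, fell. The *nspc* genes went the other way, with 8 of 13 higher and a median of 1.07. Nuclear hormone receptors were higher in 11 and lower in 1 of 62. Of 37 *ttr* genes, which encode transthyretin-related secreted proteins, 5 rose and 2 fell in translated mRNA, while none rose and 9 fell in total mRNA.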
